A study of Mus musculus with 12 samples.

Results

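Smooth muscle and myofibroblast contractile genes were followed by the rows of 10 genes, *Acta2*, *Tagln*, *Cnn1*, *Myl9*, *Myh11*, *Cald1*, *Tpm1*, *Tpm2*, *Des* and *Myocd*, out of 24453 genes in the count matrix of 4 lines of mouse embryonic fibroblasts (MEFs). The genes were listed by name, and all 10 had a row. TM6 MEFs are C57BL6/J fibroblasts with the genotype *Pnpt1* neo-flox/neo-flox, immortalized with SV40 large T antigen, and they stand as the untreated parental line. The rho0 MEFs are a colony grown from a single TM6 cell that lost its mitochondrial DNA (mtDNA) during 3 weeks in 750 ng/mL ditercalinium, which intercalates into DNA. PKO-1 and PKO-6 MEFs are clones of TM6 cells that received Cre by adenovirus, so that it deleted the floxed part of *Pnpt1*, the gene of the RNA-processing enzyme PNPase. The study describes both clones as lacking mtDNA too, so rho0 against a PKO clone is not a contrast of mtDNA state. All 4 lines grew with uridine at 50 µg/mL, and each gave 3 cultures for RNA-seq. Each derived line is 1 clone and the clones share the parent, so a p-value from the fit of 4 lines measures the spread between cultures of a line. Where the PKO clones are pooled, the spread also holds the difference between the clones. In either fit, a difference between lines cannot be told apart from a difference between single founder cells. In bulk RNA, fewer cells with a transcript and less transcript per cell cannot be told apart.

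Contraction of smooth muscle and of myofibroblasts runs on thin filaments of alpha smooth muscle actin (*Acta2*) dressed with tropomyosins (*Tpm1*, *Tpm2*), caldesmon (*Cald1*), calponin (*Cnn1*) and transgelin (*Tagln*), and on myosin II, whose regulatory light chain (*Myl9*) switches on the motor when it is phosphorylated. Smooth muscle myosin heavy chain (*Myh11*) marks fully differentiated smooth muscle, and desmin (*Des*) builds the intermediate filaments of muscle cells. Many of these genes are driven by serum response factor (SRF), which binds CArG boxes in their promoters together with myocardin (*Myocd*), the partner found in muscle, or with myocardin-related transcription factors (MRTFs), the partners found in many cell types. Fibroblasts that become myofibroblasts under TGF-beta take up *Acta2* and *Tagln* without the late smooth muscle program.

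Library totals were 47164860 to 67991378 estimated counts, of which 12.2% to 19.6% fell on the ribosomal RNA precursor *Rn45s*. The 10 contractile genes held 0.107% to 0.229% of a total. *Pnpt1* RNA, whose counts cover the whole gene and not the deleted part alone, averaged 3131 ± 262 normalized counts in TM6 (SD, n = 3), 5271 ± 230 in rho0, 1240 ± 44.3 in PKO-1 and 1944 ± 250 in PKO-6. Of 11 fibroblast markers, 7 to 10 reached a mean of 1 TPM (transcripts scaled to a common total per library) in a line, among them *Col1a1*, *Col1a2*, *Vim* and *Fn1* in all 4 lines. *Thy1* reached it in no line and was at 0 in all PKO-6 libraries. *Pdgfra* did not reach it in rho0, where *Lum* was at 0 in all libraries. *Dcn* reached it only in the PKO clones and *Lum* only in PKO-1. The fibroblast markers summed to 6624 to 6824 TPM in TM6, 3764 to 3866 in rho0, 6796 to 6962 in PKO-1 and 3026 to 3347 in PKO-6, so they were lower in rho0 and PKO-6 and not in PKO-1. *Myog*, *Myf5* and *Myf6*, factors that define skeletal muscle, were at 0 in all libraries, and the 21 skeletal muscle markers summed to 0.83 to 2.66 TPM. *Myod1*, another such factor, was at 0 in TM6, rho0 and PKO-1 but not in every library of PKO-6. *Mylpf* alone of these markers reached a mean of 1 TPM, in PKO-1. The 11 cardiac markers summed to 13.3 to 44.9 TPM, mostly from *Tnnt2*, *Gata4* and *Tbx5*, and ran lowest in rho0. Of 8 markers of mature smooth muscle, *Smtn* gave most of the sum of 20.4 to 44.2 TPM, *Kcnmb1* was at 0 throughout, and the sum was highest in TM6. The 5 epithelial markers summed to 45.4 to 48.5 TPM in TM6, 70.0 to 73.4 in rho0, 50.2 to 53.1 in PKO-1 and 74.4 to 81.0 in PKO-6. *Krt19* reached a mean of 1 TPM in all 4 lines, *Krt18* in all but PKO-6, and *Epcam* in PKO-6 alone. Endothelial markers summed to at most 1.0 TPM and leukocyte markers to at most 6.05, of which only *Cd68* reached 1 TPM. The part of these markers in the results was not tested.

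In TM6 MEFs the actin-filament genes spanned more than 4 orders of magnitude of TPM, a scale per transcript length that lets genes be compared. *Tpm1* led with 1042 ± 72.6 TPM, followed by *Cald1* with 335 ± 30.9 and *Acta2* with 146 ± 3.44. *Tagln* stood at 131 ± 5.75 TPM, *Tpm2* at 123 ± 0.241 and *Myl9* at 103 ± 6.35. *Cnn1* was far lower at 3.63 ± 0.201 TPM. *Des*, *Myh11* and *Myocd* stayed at or under 0.16 TPM in every TM6 library. The parental line therefore carried the genes shared by myofibroblasts and smooth muscle, with *Des*, *Myh11* and *Myocd* near 0. Other late smooth muscle genes were present: of the 8 markers of mature smooth muscle, *Cnn1*, *Smtn*, *Lmod1* and *Actg2* reached a mean of 1 TPM in TM6.

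**Figure D1:**
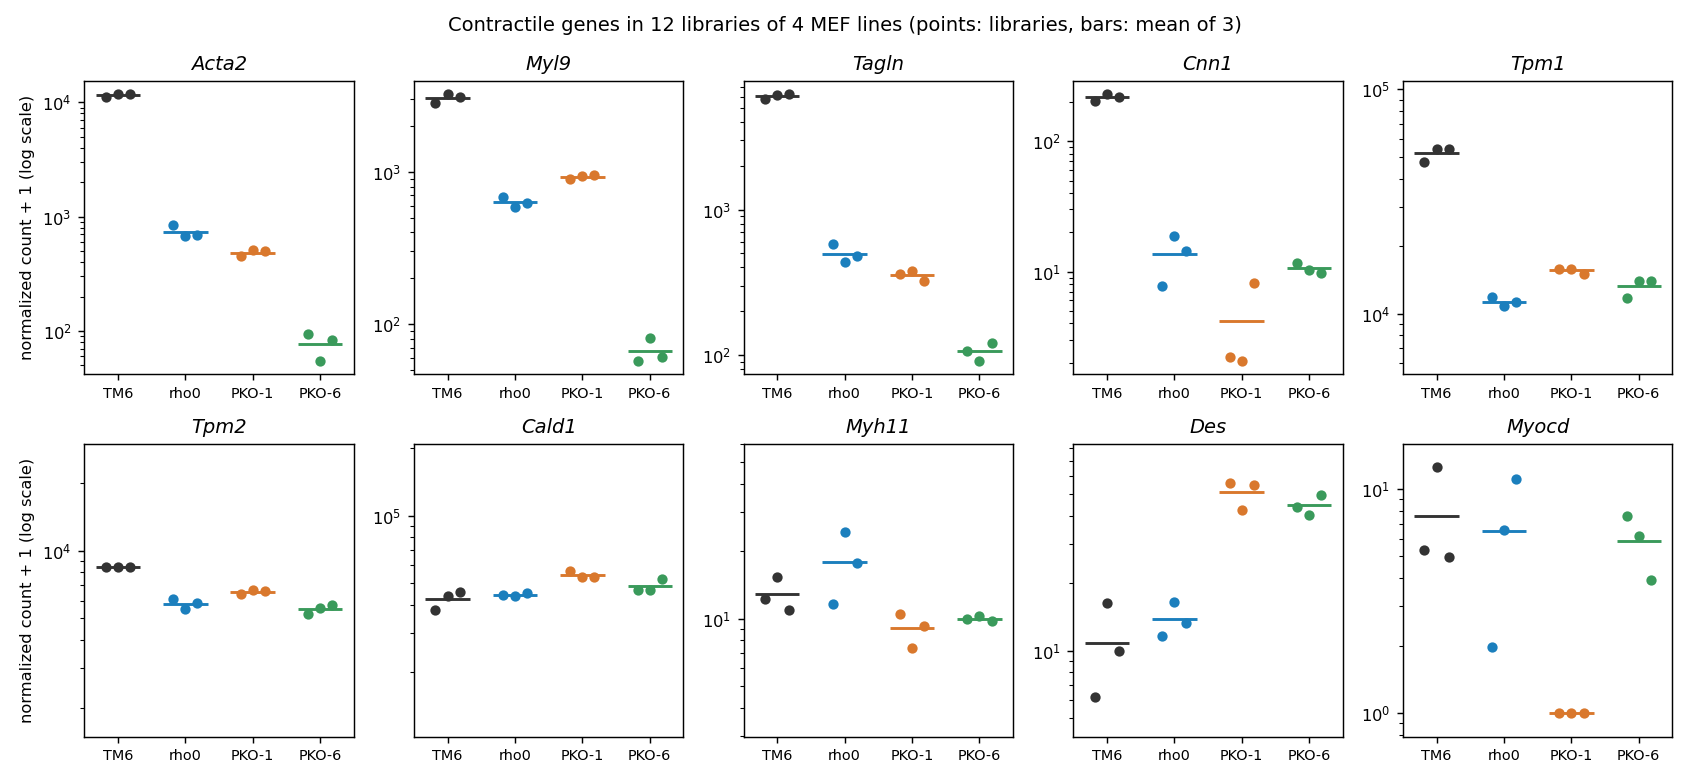
Normalized counts plus 1 of the 10 contractile genes (vertical, log scale, a separate range in each panel) in each library (points) of the 4 lines (horizontal), with the mean of 3 as a bar. *Acta2*, *Tagln*, *Cnn1* and *Tpm1* are highest in the 3 TM6 libraries, *Cald1* keeps to a narrow band, and *Des* is higher in both PKO clones.

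Levels were then compared between lines as normalized counts, which are counts scaled to the mean library and are used within a gene. A gene was called when its adjusted p from edgeR's quasi-likelihood test, by the Benjamini-Hochberg method over 14026 genes, was below 0.01 and its absolute log2 fold change was above 0.5. Of the 10 genes, 9 passed the filter on low counts, and *Myocd* did not. In rho0 against TM6, 6 of the 9 were lower and 0 higher, where 42.1% of all tested genes were called, 21.4% lower and 20.7% higher. In PKO-1 against TM6, 5 were lower and 1 higher, beside 34.3% of all tested genes called, 17.9% lower and 16.4% higher. In PKO-6 against TM6, 6 were lower and 1 higher, beside 41.3% called, 19.4% lower and 21.9% higher. Lines without overlap between their libraries were common: of all tested genes, 72.8% did not overlap in rho0 against TM6, 71.8% in PKO-1 against TM6 and 71.9% in PKO-6 against TM6. The share was 66.5% in PKO-1 against PKO-6, 69.5% in PKO-1 against rho0, 56.7% in PKO-6 against rho0 and 47.7% in the pooled clones against TM6. The median log2 fold change of the 9 was -2.20 in rho0, -1.72 in PKO-1 and -1.97 in PKO-6, beside 0.02, 0.00 and 0.01 over all tested genes. The 3 comparisons share the TM6 libraries.

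**Figure D2:**
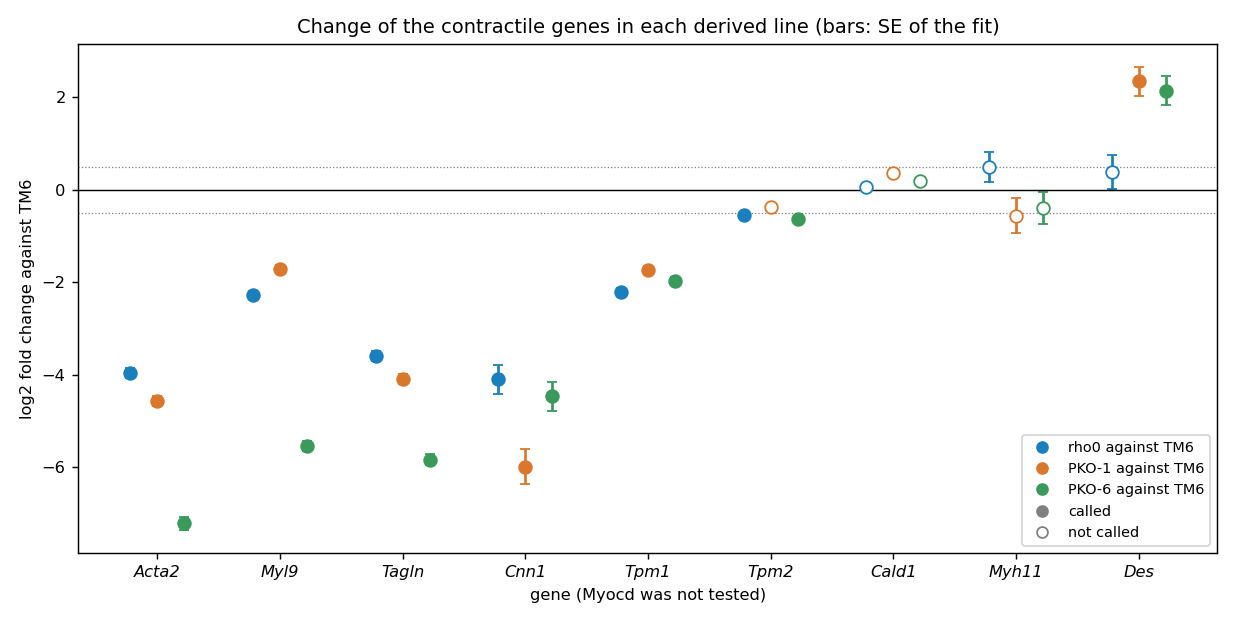
Log2 fold change against TM6 (vertical) of the 9 tested genes (horizontal) in rho0, PKO-1 and PKO-6, with the SE of the fit as bars, filled points for called genes and dotted lines at an absolute value of 0.5. *Acta2*, *Tagln*, *Cnn1*, *Myl9* and *Tpm1* are called lower in all 3 derived lines, *Des* is called higher in both PKO clones, and *Cald1* and *Myh11* are not called.

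*Acta2* (chr19:34240336-34255373, minus strand, 9 exons), which encodes the actin isoform that defines smooth muscle and myofibroblasts, fell in all 3 derived lines and furthest in PKO-6. It overlaps *Gm38437*, *Mir3084-1* and *Snora19* on the same strand, and their part in its counts was not tested. Its normalized counts were 11204, 11730 and 11727 in the TM6 libraries. They were 847, 670 and 693 in rho0, 449, 507 and 496 in PKO-1, and 92.5, 53.9 and 82.4 in PKO-6. No libraries of different lines overlapped, and every TM6 library was far above all libraries of the derived lines. The log2 fold change against TM6 was -3.97 ± 0.11 (SE) in rho0 (adjusted p = 2.2e-12), -4.58 ± 0.11 in PKO-1 (adjusted p = 1.32e-12) and -7.22 ± 0.14 in PKO-6 (adjusted p = 6.59e-14). Expressed as folds, *Acta2* RNA was 15.7, 23.8 and 149 times lower. The order TM6, rho0, PKO-1, PKO-6 separated every neighbouring pair: PKO-1 differed from rho0 by -0.61 ± 0.11 (adjusted p = 0.000297) and PKO-6 from PKO-1 by 2.65 ± 0.14 (adjusted p = 2.23e-09, PKO-1 higher).

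*Myl9* (chr2:156775464-156781657, plus strand, 4 exons), the smooth muscle form of the myosin regulatory light chain, followed another order among the derived lines. Its normalized counts were 2830, 3219 and 3083 in TM6 and 684, 582 and 622 in rho0. PKO-1 gave 892, 933 and 956, and PKO-6 gave 56.5, 79.8 and 60.1. PKO-1 thus lay above rho0 and PKO-6 far below both, with no overlap between any pair of lines. Against TM6 the log2 fold change was -2.27 ± 0.09 in rho0 (adjusted p = 5.25e-11), -1.72 ± 0.08 in PKO-1 (adjusted p = 8.49e-10) and -5.55 ± 0.11 in PKO-6 (adjusted p = 1.05e-13). With the clones pooled in the fit, the value in rho0 was still -2.27 but was not called (adjusted p = 0.0819). PKO-1 was 14.3 times higher than PKO-6, a log2 difference of 3.83 ± 0.11 (adjusted p = 5.91e-12), and 0.56 ± 0.09 above rho0 on the log2 scale (adjusted p = 8.41e-05). That last call was lost without rho0 replicate 2, with a log2 fold change of 0.50. *Myh11* (chr16:14194527-14291408, minus strand), the smooth muscle myosin heavy chain, had 6 to 21 counts in each library. Its means were 11.8 ± 2.24 normalized counts in TM6, 16.9 ± 6.31 in rho0, 8.06 ± 1.58 in PKO-1 and 9.02 ± 0.301 in PKO-6, and it was called in no comparison of 2 lines. At this depth only large changes of *Myh11* could be detected, since its SE was 0.33 to 0.39 on the log2 scale.

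The sequence upstream of the transcription start is shown for *Acta2* and *Myl9*, the members with a CArG-like box there, from RefSeq promoter windows of GRCm38.p6. Windows from 250 bases before to 50 after the start were given for 7 of the 10 genes, and for *Cald1* at 2 starts. *Tagln*, *Myh11* and *Myocd* had none. A CArG box was searched as CC, then 6 bases that are each A or T, then GG, a form that is its own reverse complement, so both strands were covered. A looser box allowed 1 of the central 6 bases to be G or C, and the forms cannot match at the same place. The strict box was in 1.63% of 32851 windows and either box in 9.98%. Only the 250 bases before the start are printed, 5′ to 3′ on the gene's strand, with the matches in capitals.
Acta2, chr19:34255374-34255623, minus strand: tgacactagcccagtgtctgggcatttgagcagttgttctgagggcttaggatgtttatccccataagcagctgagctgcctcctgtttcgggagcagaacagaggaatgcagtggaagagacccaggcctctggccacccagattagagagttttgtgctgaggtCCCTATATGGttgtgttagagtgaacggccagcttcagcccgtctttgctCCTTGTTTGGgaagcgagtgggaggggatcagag
Myl9, chr2:156775214-156775463, plus strand: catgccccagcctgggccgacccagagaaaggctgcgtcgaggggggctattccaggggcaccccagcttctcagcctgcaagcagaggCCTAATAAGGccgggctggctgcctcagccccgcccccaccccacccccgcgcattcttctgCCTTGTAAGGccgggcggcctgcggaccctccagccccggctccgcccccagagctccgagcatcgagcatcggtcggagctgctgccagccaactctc
The *Myl9* window held 1 strict box, CCTAATAAGG, which began 161 bases before the start, and 1 looser box, CCTTGTAAGG, which began 99 bases before it. The *Acta2* window held 2 looser boxes, CCCTATATGG and CCTTGTTTGG, beginning 84 and 34 bases before the start. Neither form was in the windows of *Des*, *Tpm2*, *Cald1*, *Cnn1* or *Tpm1*. Among these windows, genes that fell strongly (*Cnn1*, *Tpm1*) and genes that did not (*Cald1*, *Des*) both lacked the searched letters. Sequence outside the windows was not searched, and the part of CArG boxes in the changes was not tested.

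*Tagln* (chr9:45929628-45936058, minus strand, 5 exons), the actin-bundling protein transgelin or SM22, moved much as *Acta2* did. It overlaps *Pcsk7* on the opposite strand, and whether strand was used in counting is not given in the sources used here. Its normalized counts were 5735, 6198 and 6219 in TM6, 579, 433 and 480 in rho0, 362, 377 and 321 in PKO-1, and 106, 90.2 and 120 in PKO-6. No lines overlapped, and PKO-6 was lowest again. The log2 fold change against TM6 was -3.60 ± 0.10 in rho0 (adjusted p = 2.73e-12), -4.10 ± 0.11 in PKO-1 (adjusted p = 1.49e-12) and -5.84 ± 0.12 in PKO-6 (adjusted p = 1.34e-13). PKO-1 was 3.34 times higher than PKO-6 (adjusted p = 4.88e-08). PKO-1 and rho0 differed by -0.50 ± 0.11 on the log2 scale with an adjusted p of 0.00107, just short of the fold threshold. Under 12 of 20 alternatives it was called, and the value ranged from -0.60 to -0.06, the latter with the chromosome 9 median subtracted.

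*Cnn1* (chr9:22099253-22109221, plus strand, 7 exons), calponin 1, an inhibitor of the actomyosin ATPase, went from a modest level in TM6 to a few reads. Normalized counts were 202, 228 and 218 in TM6 and 6.78, 17.7 and 13.4 in rho0. They were 1.19, 1.07 and 7.24 in PKO-1 and 10.6, 9.33 and 8.73 in PKO-6. The TM6 libraries stood apart from all others, while the derived lines lay close to one another. Against TM6 this was a log2 fold change of -4.11 ± 0.30 in rho0 (adjusted p = 3.7e-08), -6.00 ± 0.38 in PKO-1 (adjusted p = 9.39e-09) and -4.47 ± 0.31 in PKO-6 (adjusted p = 1.59e-08). Here PKO-1 and not PKO-6 was lowest, but the clones differed with an adjusted p of 0.0277 and were not called, and without PKO-1 replicate 3 the difference of -2.96 was called (adjusted p = 0.00125). PKO-1 was called lower than rho0 (log2 fold change -1.89 ± 0.53, adjusted p = 0.00697) although PKO-1 replicate 3 lay above rho0 replicate 1. That call was lost on leaving out 1 library in 5 of 12 cases: TM6 replicate 3, rho0 replicates 2 and 3, and PKO-1 replicates 1 and 2, where the log2 fold change was -1.89, -1.57, -1.85, -1.54 and -1.47 and the adjusted p 0.0104 to 0.0335. *Cnn1* overlaps the microRNA gene *Mir680-2* on the opposite strand.

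*Cald1* (chr6:34709444-34775469, plus strand, 12 exons), caldesmon, which holds myosin off the thin filament in smooth muscle and also has a form in non-muscle cells, did not fall. Normalized counts were 38020, 43972 and 45721 in TM6, 44289, 44019 and 45074 in rho0, 56760, 53090 and 53506 in PKO-1, and 46429, 46644 and 51939 in PKO-6. All PKO libraries lay above all TM6 libraries, and those of rho0 lay within the TM6 range. Relative to TM6 the log2 fold change was 0.06 ± 0.07 in rho0 (adjusted p = 0.454), 0.36 ± 0.07 in PKO-1 (adjusted p = 0.000735) and 0.18 ± 0.07 in PKO-6 (adjusted p = 0.0378), none of which reached the fold threshold. The values were estimated for a single RefSeq transcript of the gene, so smooth muscle and non-muscle caldesmon were not separated here.

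The tropomyosins lie along the thin filament and set which myosins reach it. *Tpm1* (chr9:67022593-67049213, minus strand, 10 transcripts) gave normalized counts of 47507, 54231 and 53965 in TM6. The values were 11815, 10793 and 11228 in rho0, 15838, 15875 and 15032 in PKO-1, and 11789, 14025 and 14045 in PKO-6. Every TM6 library was far above the derived lines, which lay in a narrow band of their own. The log2 fold change against TM6 was -2.20 ± 0.08 in rho0 (adjusted p = 2.83e-11), -1.74 ± 0.08 in PKO-1 (adjusted p = 3.08e-10) and -1.97 ± 0.08 in PKO-6 (adjusted p = 5.75e-11). In the order TM6, PKO-1, PKO-6, rho0, the last 3 were not called apart: PKO-1 was 0.23 ± 0.08 above PKO-6 (adjusted p = 0.0181), PKO-6 0.24 ± 0.08 above rho0 (adjusted p = 0.0184) and PKO-1 0.47 ± 0.08 above rho0 (adjusted p = 0.000124), all on the log2 scale.

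*Tpm2* (chr4:43513726-43523554, minus strand, 3 transcripts), beta-tropomyosin, changed far less than *Tpm1*. Normalized counts were 8479, 8436 and 8431 in TM6, 6082, 5498 and 5833 in rho0, 6443, 6664 and 6609 in PKO-1, and 5237, 5547 and 5704 in PKO-6. All 9 libraries of the derived lines were below all 3 of TM6. The log2 fold change was -0.54 ± 0.05 in rho0 (adjusted p = 3.66e-07) and -0.62 ± 0.05 in PKO-6 (adjusted p = 8.08e-08), which were called, and -0.36 ± 0.05 in PKO-1 (adjusted p = 2.28e-05), which was not.

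*Tagln*, *Cnn1* and *Tpm1*, 3 of the genes lower in each derived line, lie on chromosome 9. Over 776 tested genes of chromosome 9 the median log2 fold change was -0.39 in PKO-1 against TM6, but 0.04 in rho0 and 0.01 in PKO-6 against TM6. With that median subtracted, the PKO-1 values of the 3 genes remained called. PKO-1 was also lower over chromosome 9 against PKO-6 (median -0.37) and against rho0 (median -0.44), and *Tpm1* was called higher in PKO-1 than in rho0 once the median was subtracted (0.91).

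Transcripts of *Tpm1* begin at either of 2 places. Long tropomyosins, the forms of muscle and of fibroblast stress fibres, come from 6 transcripts that begin at the distal exon (chr9:67049019-67049213), and short tropomyosins from 4 transcripts that begin at an internal exon (chr9:67043578-67043871). The distal group held 45028, 51771 and 51722 normalized counts in TM6, 9840, 9169 and 9863 in rho0, 14577, 14531 and 13703 in PKO-1, and 10322, 12285 and 12800 in PKO-6. The internal group held 2477, 2460 and 2244 in TM6, 1975, 1626 and 1366 in rho0, 1261, 1346 and 1329 in PKO-1, and 1467, 1741 and 1245 in PKO-6. In both groups all TM6 libraries were above the others, and the gap was wider for the distal start. When the groups were fitted as 2 features, a split chosen after the values were seen, the distal start changed by -2.36, -1.79 and -2.07 on the log2 scale in rho0, PKO-1 and PKO-6. The internal start changed by -0.53, -0.87 and -0.69, and all 6 changes were called (adjusted p at most 0.0016). Between the derived lines, the distal start was called higher in PKO-1 than in rho0 (0.57 ± 0.08, adjusted p = 3.68e-05). No other contrast of derived lines was called for either start. The internal start made up 4.69% ± 0.54 of *Tpm1* transcripts in TM6, 14.99% ± 2.02 in rho0, 8.58% ± 0.39 in PKO-1 and 11.6% ± 1.92 in PKO-6, with every derived library above every TM6 library.

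**Figure D3:**
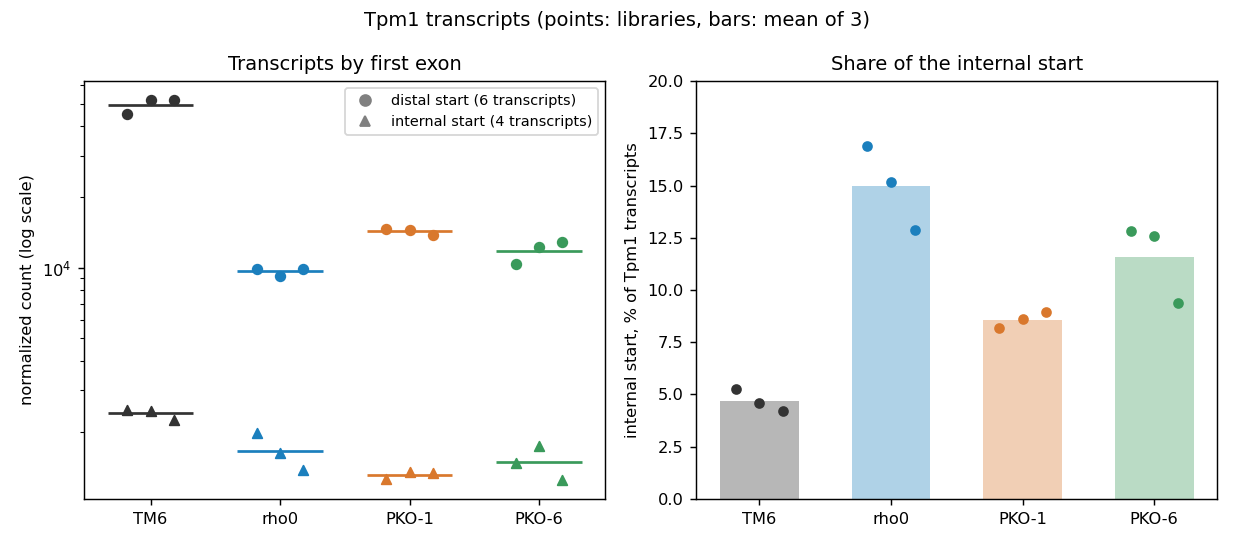
Left, normalized counts (vertical, log scale) of *Tpm1* transcripts that begin at the distal exon (circles) or the internal exon (triangles) in each library of the 4 lines, with means as lines; right, the share of *Tpm1* transcripts with the internal start in percent, with means as bars. The distal start is far lower in the derived lines, and the internal share rises from 4.69% in TM6 to as much as 14.99% in rho0.

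Single transcripts were tested for a change in share within their gene, with edgeR's diffSpliceDGE over 10261 transcripts. In rho0 against TM6, 2 transcripts of the contractile genes were called, where 2.75% of all tested transcripts were. The *Tpm1* transcript NM_001164252, which has the internal start, took 4.42%, 3.57% and 2.94% of *Tpm1* in TM6 and 16.6%, 13.5% and 8.24% in rho0, a rise of 1.84 relative to the gene on the log2 scale (adjusted p = 1.73e-05). The *Tpm2* transcript NM_009416, which has the longest last exon, took 14.1%, 11.1% and 14% of *Tpm2* in TM6 and 4.48%, 8.43% and 7.36% in rho0, a change of -0.91 (adjusted p = 0.00257). In PKO-6 against TM6, only NM_009416 was called (background 2.02%), at 7.25%, 4.52% and 7.82% in PKO-6 and a change of -0.95 (adjusted p = 0.00253). None was called in PKO-1 against TM6 (background 1.69%) or PKO-1 against PKO-6 (background 1.01%), where limma's diffSplice called 2 and 0 and 3 and 3 of the 12 tested had an unadjusted p under 0.05 in edgeR. Estimated shares of overlapping transcripts were uneven within a line: NM_001164252 took 6.55%, 11.4% and 2.02% in the PKO-6 libraries. The call of NM_009416 was lost in rho0 without TM6 replicate 1 or 3 or rho0 replicate 1 or 3, and in PKO-6 without TM6 replicate 1 or 3 or PKO-6 replicate 2.

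The alternative exon of *Tpm1* that smooth muscle uses (chr9:67048124-67048249) was in 0.88% ± 0.15 of *Tpm1* transcripts in TM6, 2.96% ± 0.46 in rho0, 0.75% ± 0.32 in PKO-1 and 2.21% ± 0.28 in PKO-6. Its transcript was not called in any comparison, with an adjusted p of 0.24 in rho0 against TM6. More than 80% of *Tpm1* transcripts in each library had the exon at chr9:67047786-67047911 in its place. In *Tpm2*, the upstream one of a pair of alternative internal exons (chr4:43519003-43519078) was in 74.7% ± 1.29 of transcripts in TM6, 85.7% ± 0.52 in rho0, 72.3% ± 2.05 in PKO-1 and 76.7% ± 1.35 in PKO-6, so that the rho0 libraries stood above all others. The transcript with that exon, NM_001277876, was not called in rho0 against TM6 (relative log2 change 0.25, adjusted p = 0.367).

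*Des* (chr1:75360292-75368579, plus strand, 9 exons), the muscle intermediate filament gene, moved the other way. Its normalized counts were 5.19, 15.3 and 8.97 in TM6 and 10.7, 15.5 and 12.3 in rho0. They were 54.8, 41.5 and 53.8 in PKO-1 and 42.6, 39.4 and 48.5 in PKO-6. Both clones were above every TM6 and rho0 library, and TM6 and rho0 overlapped. Relative to TM6 this was a log2 fold change of 2.35 ± 0.31 in PKO-1 (adjusted p = 1.46e-05), 2.15 ± 0.31 in PKO-6 (adjusted p = 2.65e-05) and 0.39 ± 0.37 in rho0 (adjusted p = 0.354). Against rho0, the clones were higher by 1.96 ± 0.30 and 1.76 ± 0.30 (adjusted p = 7.33e-05 and 0.000264). Even so, desmin RNA stayed at or under 0.56 TPM and made up 0.024% and 0.036% of the summed desmin and vimentin TPM in the clones. *Des* overlaps the predicted gene *Gm15179* on the opposite strand.

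*Myocd* (chr11:65176571-65269989, minus strand), the SRF partner of muscle, was at the limit of detection. TM6 libraries had 5, 12 and 4 counts, rho0 libraries 1, 5 and 9, and PKO-6 libraries 8, 5 and 3. All 3 PKO-1 libraries had 0, which allows up to 3 counts over the line. The observed rate of *Myocd* was 6.01 times that limit in TM6, 4.86 times in rho0 and 4.56 times in PKO-6, from 21, 15 and 16 counts in all. Only the 0 of PKO-1 is bounded in these ratios. They leave out the counting error of the other lines and the spread between cultures, so they are not lower limits. Without TM6 replicate 2 the ratio for TM6 was 3.81-fold, and without rho0 replicate 3 that for rho0 was 2.84-fold. Leaving out PKO-1 replicate 1, 2 or 3 gave 3.88-fold to 4.16-fold for TM6, 3.14-fold to 3.37-fold for rho0 and 2.95-fold to 3.16-fold for PKO-6. It was left out of the main test, and without the filter on low counts PKO-1 against TM6 gave an adjusted p of 0.00311.

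Between the derived lines, some contractile genes were called and others were not. In PKO-1 against PKO-6, 3 of the 9 tested genes were higher and 0 lower (background 29.1% called, 11.5% higher and 17.6% lower): *Acta2*, *Myl9* and *Tagln*, at log2 fold changes of 2.65, 3.83 and 1.74. That count of calls is near the background and is no result about the contractile genes as a group. In PKO-1 against rho0, 2 were higher (*Myl9*, *Des*) and 2 lower (*Acta2*, *Cnn1*; background 32.7% called, 15.1% higher and 17.6% lower). In PKO-6 against rho0, 1 was higher (*Des*) and 3 lower (*Acta2*, *Myl9*, *Tagln*; background 21.5% called, 13.3% higher and 8.16% lower). *Acta2*, *Myl9* and *Tagln* were 9.53, 9.69 and 4.72 times lower in PKO-6 than in rho0. With the clones pooled as 1 PKO group of 6 libraries, 1 gene was higher and 4 lower than TM6 (background 25.7% called, 13.5% higher and 12.2% lower). That fit takes the 6 libraries as independent, although cultures of a clone are not independent of each other. *Myl9* then had a log2 fold change of -2.62 ± 0.81 and an adjusted p of 0.0196 and was not called, since its level differed 14.3 times between the clones. For *Acta2* the pooled value was -5.38 ± 0.63 (adjusted p = 3.35e-05).

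Many of the smooth muscle genes have relatives that serve non-muscle cells, and the listed contractile gene can be given as a share of its family's summed TPM. The sums themselves were lower in the derived lines, as for the actins at 9280 TPM on average in TM6 and 5318, 7513 and 5792 in rho0, PKO-1 and PKO-6. *Acta2* was 1.58% ± 0.025 of 6 actins in TM6, 0.172% ± 0.006 in rho0, 0.078% ± 0.006 in PKO-1 and 0.016% ± 0.005 in PKO-6. *Tagln* was 28.3% ± 0.567 of 3 transgelins in TM6, 3.36% ± 0.148 in rho0, 3.25% ± 0.177 in PKO-1 and 0.796% ± 0.19 in PKO-6. *Myl9* was 12.6% ± 0.312 of 3 regulatory light chains in TM6, 3.78% ± 0.052 in rho0, 4.04% ± 0.262 in PKO-1 and 0.33% ± 0.047 in PKO-6. On this scale rho0 and PKO-1 lay close together for transgelin and the light chain, and every PKO-6 library lay below them. *Tpm1* and *Tpm2* together were 52.3% ± 0.255 of 4 tropomyosins in TM6 and 28.7% to 30.7% on average in the derived lines, so *Tpm3* and *Tpm4* became the larger part. The exon that smooth muscle uses was in 0.88% of *Tpm1* transcripts in TM6, so this is not a share of smooth muscle tropomyosin. *Cnn1* was 0.418% ± 0.014 of 3 calponins in TM6 and at most 0.072% in any library of the derived lines. The near-silent members went otherwise: *Myh11* was 0.009% of 4 myosin heavy chains in TM6 and 0.02% in rho0, and *Des* 0.004% of desmin and vimentin in TM6 and 0.024% and 0.036% in PKO-1 and PKO-6.

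**Figure D4:**
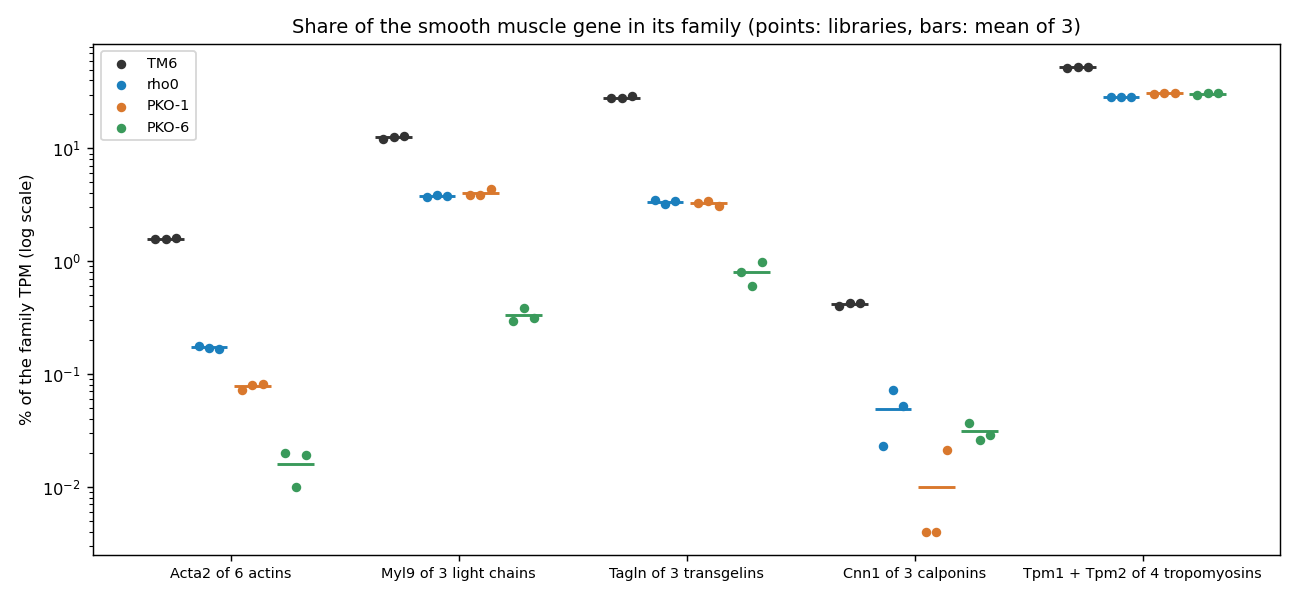
Share of the listed contractile gene or genes in the summed TPM of the family (vertical, percent, log scale) for 5 families (horizontal) in each library (points) of the 4 lines, with the mean of 3 as a bar. TM6 is highest in each of these 5 families (*Myh11* and *Des* are not drawn), and PKO-6 is lowest for *Acta2*, *Myl9* and *Tagln*, as with 1.58% against 0.016% of actins for *Acta2*.

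Of 17 listed non-muscle relatives, all of them tested, 12 were lower and 1 higher in rho0, 7 lower and 1 higher in PKO-1, and 4 lower and 0 higher in PKO-6 against TM6. Over all tested genes 21.4%, 17.9% and 19.4% were lower, so the count in PKO-6 is near the background. *Actb*, cytoplasmic beta-actin, averaged 369630 normalized counts in TM6, 226900 in rho0, 346010 in PKO-1 and 273220 in PKO-6, and only rho0 was called (log2 fold change -0.70 ± 0.09). *Cnn2*, the calponin of non-muscle cells, was lower in all 3, with log2 fold changes of -1.10, -0.67 and -0.88 in rho0, PKO-1 and PKO-6. *Tagln2* was called in PKO-1 alone, where it fell by 0.55. *Tpm3* was called in none, and *Tpm4* was lower in rho0 (-0.61) and PKO-6 (-0.90). *Myl12b* was lower in rho0 (-0.59) and higher in PKO-1 (0.70). *Acta1*, skeletal actin, averaged 16.5 normalized counts in TM6 and 19.2 in PKO-1 but 1.06 in rho0 and 0.669 in PKO-6, and *Actc1*, cardiac actin, was at 0 in all TM6 and rho0 libraries.

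Of 24 other smooth muscle genes listed, 19 were tested. Against TM6, 12 were lower and 3 higher in rho0, 10 lower and 4 higher in PKO-1, and 7 lower and 1 higher in PKO-6. In the same order, 21.4%, 17.9% and 19.4% of all tested genes were lower and 20.7%, 16.4% and 21.9% higher. *Actg2*, enteric smooth muscle actin, had 64.8, 75.5 and 69.8 normalized counts in TM6 and 1.94 to 5.95 in all derived libraries, with log2 fold changes of -3.89, -3.85 and -4.44. *Fhl1*, a LIM protein of muscle on chromosome X, averaged 1938 in TM6, 112 in rho0, 9.93 in PKO-1 and 8.30 in PKO-6, and *Csrp1*, another LIM protein, changed by -0.86, -0.81 and -0.99. Others rose. *Synpo2* (0.92 and 1.58) and *Hspb6* (0.88 and 1.055) were called higher in rho0 and PKO-1, and *Pln* in rho0 (1.74). These 3 were named after their values were seen. *Npnt* was called lower in rho0 (-1.89) and higher in PKO-1 (1.19). *Mylk*, the kinase that phosphorylates the regulatory light chain, went in both directions: it averaged 347 in TM6, 164 in rho0, 627 in PKO-1 and 464 in PKO-6, a log2 change of -1.09 in rho0 and 0.85 in PKO-1 (adjusted p = 1.01e-06 and 6.89e-06).

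Of 26 genes listed as SRF cofactors and repressors, 22 were tested and the calls went both ways: 7 lower and 5 higher in rho0, 6 lower and 7 higher in PKO-1, and 5 and 5 in PKO-6. Over all tested genes 21.4%, 17.9% and 19.4% were lower and 20.7%, 16.4% and 21.9% higher, so the counts in PKO-6 and the higher count in rho0 are near the background. *Srf* itself averaged 5555 normalized counts in TM6, 2804 in rho0, 3748 in PKO-1 and 3406 in PKO-6, and was called lower in each line (log2 fold change -0.98, -0.57 and -0.71). *Mkl1*, which encodes MRTF-A, was lower in each (-0.94, -0.50 and -0.55), while *Mkl2*, which encodes MRTF-B, kept to averages of 5580 to 6536 in all 4 lines. *Klf4*, a repressor of smooth muscle genes, had 1595, 1631 and 1597 in TM6 and 4372 to 5337 in the 9 libraries of the derived lines, a rise of 1.66, 1.52 and 1.62. *Notch3*, a receptor of mural cells, rose from 62.0 on average to 416, 1195 and 790. The 7 pericyte markers that include it went the other way in sum, from 70.4 to 78.4 TPM in TM6. Their sum was 45.0 to 46.8 TPM in rho0, 42.6 to 49.1 in PKO-1 and 32.8 to 34.7 in PKO-6. *Gata6* rose from 81.6 to 215, 527 and 226. Of 20 tested SRF and MRTF targets outside the 10 genes, 10 were lower and 1 higher in rho0, 6 and 1 in PKO-1, and 8 and 1 in PKO-6, beside the same shares of all tested genes. *Vcl*, vinculin, changed by -1.07, -0.93 and -1.75, and *Flna*, filamin A, whose gene is on chromosome X, by -0.93, -0.82 and -1.04. Over 459 tested genes of chromosome X the median change was -0.75 in rho0, -0.74 in PKO-1 and -0.87 in PKO-6, near the values of *Flna*. Other targets were not lower alike: *Ctgf*, *Cyr61*, *Egr1* and *Fos* were called lower in rho0 (-1.25, -1.59, -1.85 and -1.585). In the clones, *Cyr61* was called lower in PKO-1 (-0.52) and not in PKO-6, and *Ctgf*, *Egr1* and *Fos* were called in neither. *Ankrd1* rose by 0.83, 0.91 and 1.43.

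**Figure D5:**
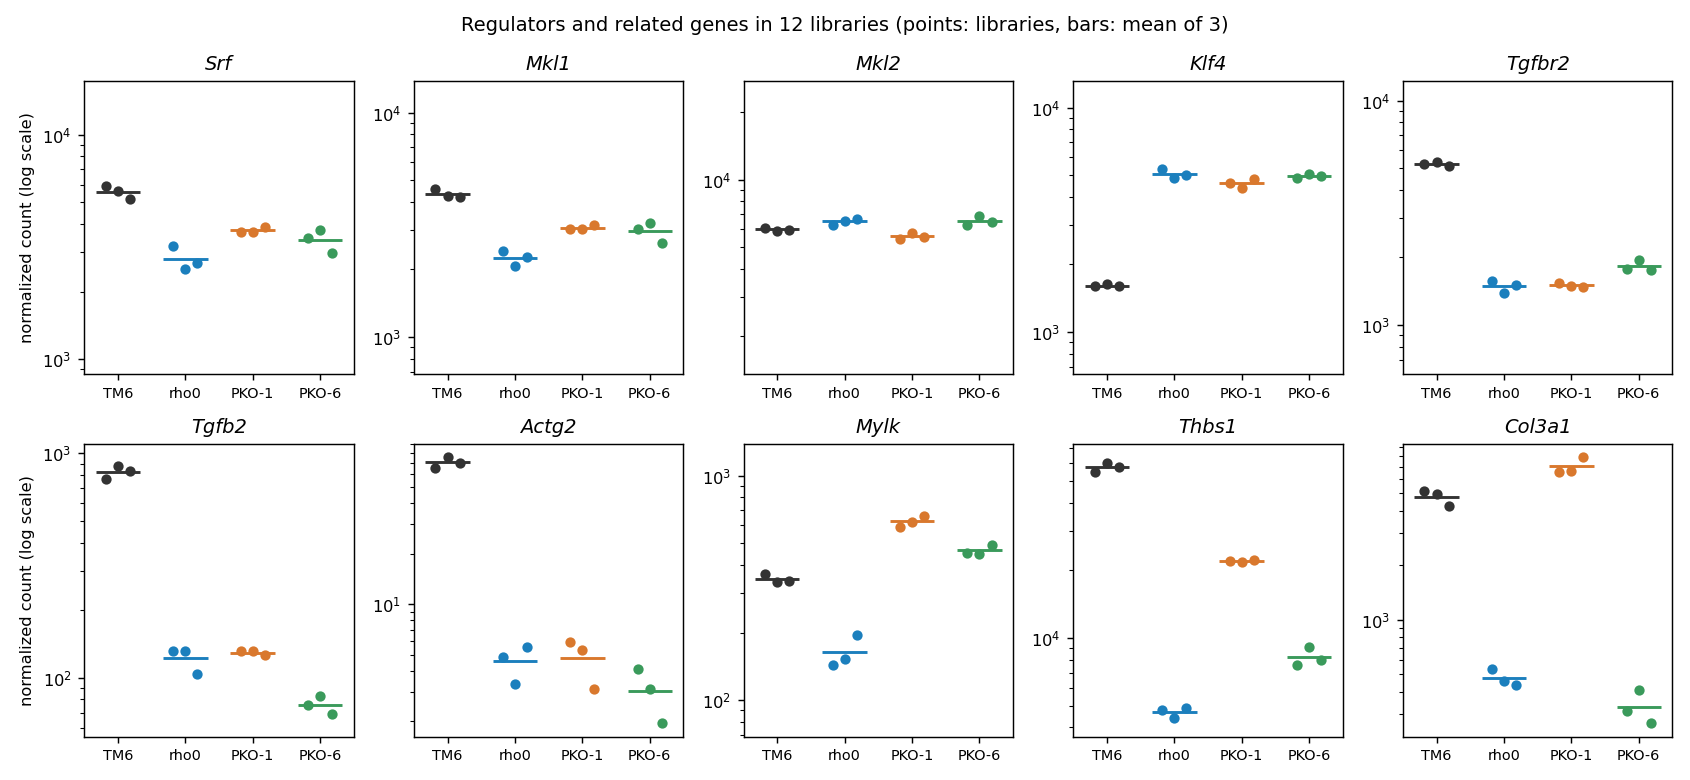
Normalized counts (vertical, log scale, a separate range in each panel) of 10 regulators and related genes in each library (points) of the 4 lines (horizontal), with the mean of 3 as a bar. *Srf*, *Mkl1*, *Tgfbr2*, *Tgfb2*, *Actg2* and *Thbs1* are highest in TM6, *Klf4* is lowest there, and *Col3a1* averages 7011 in PKO-1 against 329 in PKO-6.

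TGF-beta signalling is known to induce *Acta2* in fibroblasts. Of its 20 listed genes 19 were tested, and 8 were lower in each of rho0, PKO-1 and PKO-6, beside 21.4%, 17.9% and 19.4% of all tested genes. In the same order 1, 2 and 3 were higher, beside 20.7%, 16.4% and 21.9% of all tested genes. *Tgfbr2*, the receptor that binds the ligand, averaged 5205 normalized counts in TM6, 1488 in rho0, 1503 in PKO-1 and 1823 in PKO-6 (log2 fold change -1.81, -1.79 and -1.51). The 3 ligands did not move as one. *Tgfb2* averaged 828, 122, 129 and 75.7 in the same order, and *Tgfb3* 2714, 837, 1578 and 1214. *Tgfb1*, named after its values were seen, averaged 650.3, 1055, 751.5 and 1449 and was called higher in rho0 (0.70, adjusted p = 1.62e-05) and PKO-6 (1.16, adjusted p = 9.15e-08) and not in PKO-1 (0.21). It was the 1 gene of the list called higher in rho0. *Tgfbr1*, the signalling receptor, was higher in PKO-6 (0.64). *Tgfbr3*, the co-receptor, was higher in PKO-1 (0.79) and lower in rho0 and PKO-6 (-1.18 and -0.95).

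Matrix genes of myofibroblasts went in both directions, with more called lower than higher in each derived line. Of 13 tested, 10 were lower in rho0, 8 in PKO-1 and 12 in PKO-6 against TM6, with 1, 2 and 1 higher, where 21.4%, 17.9% and 19.4% of all tested genes were lower. In PKO-1 against PKO-6, 9 were higher and 0 lower, where 11.5% of all tested genes were higher and 17.6% lower. *Fn1*, fibronectin, named after its values were seen, averaged 113270 normalized counts in TM6 and was higher in each line (log2 fold change 1.07, 1.19 and 0.88). *Postn*, periostin, averaged 757 ± 47.9 normalized counts in TM6 and 1.81, 1.11 and 1.56 in rho0, PKO-1 and PKO-6. *Tnc*, tenascin C, changed by -2.17, -2.36 and -2.14 on the log2 scale, and *Thbs1*, thrombospondin 1, averaged 57803, 4688, 22029 and 8237. *Col3a1*, a fibrillar collagen, averaged 4765 in TM6 and 7011 in PKO-1 but 476 in rho0 and 329 in PKO-6.

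The genes nearest in pattern to a member were taken as those with the smallest root mean square difference of centred log2 CPM (counts scaled by library size) over the 12 libraries, among 11199 candidates. For *Acta2* these were *Adra1d* (0.52), *Bend4* (0.66) and *Lbh* (0.73), beside a median of 2.61 over all candidates. *Adra1d*, an adrenergic receptor, averaged 1967 normalized counts in TM6, 210 in rho0, 84.2 in PKO-1 and 24.6 in PKO-6. For *Myl9* they were *Fbn1* (0.35), *Aspn* (0.45) and *Sorbs2* (0.45), beside a median of 2.01, and *Fbn1*, fibrillin 1, averaged 10320, 1191, 2348 and 138. For *Tpm1* they were *Clcn5* (0.11), *Atp6ap2* (0.12) and *Il13ra1* (0.12), beside a median of 0.91. All 3 lie on chromosome X, where the median log2 fold change of 459 tested genes was -0.75 in rho0, -0.74 in PKO-1 and -0.87 in PKO-6 against TM6, and 61.7%, 63.2% and 63.8% of genes were called lower. Among the members themselves, *Acta2* and *Tagln* were 0.54 apart on this measure, *Cald1* and *Tpm2* 0.33, and *Acta2* and *Des* 3.44.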

How the data were processed

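RNA-seq values of 12 libraries were used, 3 cultures in each of 4 lines. Per the labels and the study's methods, RNA was depleted of ribosomal RNA, strand-specific libraries were made in technical duplicate, and the merged paired reads were aligned to RefSeq transcripts of GRCm38 through RSEM (its reference was built for bowtie and bowtie2, and which of them aligned the reads is not given in the sources used here). The authors deposited expected counts estimated with RSEM 1.2.25, not normalized, for 24453 genes, and per library for 35835 transcripts with TPM and the percent of each gene's transcripts. Rounded expected counts were tested by edgeR 4.0.16 under R 4.3.3, with genes kept by filterByExpr (minimum count 10), TMM scaling and a quasi-likelihood fit of 4 lines, or of 3 groups for pooled clones. Calls used the study's thresholds, adjusted p (Benjamini-Hochberg) of 0.01 and absolute log2 fold change of 0.5. SE is the log2 fold change over the square root of F. Transcript shares used diffSpliceDGE. Alternatives were DESeq2 1.42.0 and its size factors, limma 3.58.1 for transcripts, no count filter, other thresholds, a replicate block, the chromosome median subtracted and each library left out. The split of *Tpm1* by start and the *Myocd* ratios with a library left out were chosen once values had been seen. The tests were tried on simulated data. The 10 genes and all lists were chosen with earlier results of these data known. Named genes are the 10 members, *Pnpt1*, direct relatives and regulators fixed by name, up to 3 called genes per list and comparison by fold change among genes averaging 100 normalized counts or more, and the 3 nearest in pattern. Not every gene that the rule admits is printed, and 1 of the gene lists is not reported here.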

Additional observations from a re-analysis of the deposited data

Results flagged for a closer look

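The clones differed from each other in 3 of the contractile genes under the same contrast with TM6, by edgeR's test of PKO-1 against PKO-6. The log2 difference was 2.65 for *Acta2* (adjusted p = 2.23e-09), 3.83 for *Myl9* (adjusted p = 5.91e-12) and 1.74 for *Tagln* (adjusted p = 4.88e-08), with all 3 PKO-1 libraries above all 3 PKO-6 libraries in each gene. Over all tested genes 29.1% were called in this comparison and 66.5% had libraries that did not overlap, so the count of 3 in 9 tested is near the background and is no result about the contractile genes as a group. Against TM6 both clones were lower in all 3 genes. Groups of 3 libraries were too small to look for single outlying samples by range.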

How the results depend on the processing

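The values of the 9 tested genes in 7 comparisons kept their direction where called. Of 1263 values under alternatives, 1218 stayed on their side of the thresholds, 34 became called, 11 lost the call and 0 were reversed. The count of called genes stayed within 1.5 times except in PKO-1 against rho0, where a fold threshold of 1 (log2) left 2 and adjusted p alone gave 8. *Myl9* in PKO against TM6 was called (-3.63) with the mean of the clones in a fit of 4 lines. Called transcripts numbered 4, 2 and 2 in rho0, PKO-1 and PKO-6 against TM6 with limma. Without 1 library they were 1 to 2, 0 to 1 and 0 to 2, and 0 to 1 in PKO-1 against PKO-6. The single call arose in PKO-1 against TM6 when PKO-6 replicate 2 or 3 was left out, and between the clones on leaving out rho0 replicate 1, PKO-1 replicate 1 or else PKO-6 replicate 2. The count of 2 in PKO-6 came without PKO-6 replicate 3. Replicate numbers did not pair the samples (correlations of deviations -0.385 to 0.25), and with a replicate block the called genes numbered 6, 6 and 7 in rho0, PKO-1 and PKO-6 against TM6, 3 between the clones, 4 in each clone against rho0 and 5 in the pooled comparison, as without it. The block left the called transcripts at 2, 0, 1 and 0. *Myh11* was called lower in PKO-1 and PKO-6 against rho0 without rho0 replicate 1 (-1.32 and -1.16). The cause of these changes was not tested. With each derived line 1 clone, founder effects cannot be told apart from mtDNA or PNPase loss.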
